A study of Mus musculus with 8 samples.

Results

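The genes described here are the mouse zinc finger protein genes named Zfp and a number. A gene belonged to the set when its name stood on 1 locus of the deposited 8 h table, its status there was OK, and its level before treatment was at least 1 FPKM (sequenced fragments per kilobase of a gene's transcript, adjusted for library size). Zfp42 and Zfp36 were left out by name. Of 350 loci with such a name, 49 carried a name found on several loci, and a further 32 loci merged with other genes were not counted. This left 299 candidates, and 271 of these reached 1 FPKM at 0 h, out of 35541 loci in the table. The other 28 candidates lay under 1 FPKM, 8 of them at 0. The rule used the 0 h level, which is also the denominator of every ratio below.

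Most genes with this kind of name encode C2H2 zinc finger proteins. In a C2H2 finger, a pair of cysteines and a pair of histidines hold a zinc ion, and neighbouring fingers joined by a short conserved linker read a stretch of DNA together. Many of these proteins also carry a KRAB (Krüppel-associated box) domain, which recruits the corepressor TRIM28 and through it histone and DNA methyltransferases, and such proteins silence transposable elements and imprinted regions. They are encoded by large families of tandem copies, typically with all fingers in a single long last exon.

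The samples were day 6 retinal organoids, aggregates of mouse cells differentiated towards retinal progenitors, from an Rx:GFP line in which both endogenous Mettl3 alleles carry a C-terminal FKBP12F36V-HA tag. METTL3 is the catalytic subunit of the complex that writes N6-methyladenosine (m6A) on messenger RNA, and the tag lets the small molecule dTAG-13 direct the protein to degradation. All 8 samples carried the tagged alleles. They formed 4 groups of 2 replicates: untreated (0 h), and 1, 8 or 24 h of dTAG-13 at 125 nM. The labels do not say whether the untreated samples received solvent, whether the line is a single clone, or whether replicates were separate cultures. The study asks how messenger RNA levels change with time after METTL3 loss.

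The deposited tables hold 1 value per gene and condition, already combined over both replicates, with an interval from the authors' variance model. No spread between replicates could be seen and no p-value could be given. A gene was called higher or lower when the ratio of its FPKM to that at 0 h, after adding 0.1 to each, was 1.5-fold or more and the authors' intervals lay apart. "Rose" and "fell" are used for called genes. The estimated counts of a condition added up to 31361518 at the lowest and 32562075 at the highest, and the members had a median of 912 estimated counts at 0 h in the 8 h table. Retinal progenitor markers stood well above the threshold at 0 h, with Lhx2 at 142 FPKM and Rax at 49.7. The pluripotency genes Pou5f1 (34.7 FPKM) and Dppa5a (200 FPKM) were also present at 0 h, and Dppa5a fell at 24 h (log2 ratio -0.88), when Rax and Lhx2 rose (0.66 and 0.69). These are bulk organoids, so fewer cells of a type and less RNA per cell cannot be told apart, and the part of these cell type markers in the members' ratios was not tested.

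The structure that most members share is the repeated finger unit. It is shown here for 3 members that rose and 3 that fell, picked after their values were seen. Each line is the first unit of 84 bases in the coding strand of the GENCODE M21 transcript (GRCm38), 5′ to 3′, and the capitals mark the codons of the paired cysteines and histidines that hold the zinc. Units were taken only where all 84 bases lay within 1 exon and the next finger began directly after them.
Zfp189, chr4:49529292-49529375, plus strand, exon 4 of 4: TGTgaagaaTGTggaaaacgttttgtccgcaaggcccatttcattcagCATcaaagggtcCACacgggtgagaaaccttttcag
Zfp37, chr4:62192097-62192180, minus strand, exon 4 of 4: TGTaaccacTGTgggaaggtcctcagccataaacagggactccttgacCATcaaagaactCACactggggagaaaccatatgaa
Zfp62, chr11:49215459-49215542, plus strand, exon 2 of 2: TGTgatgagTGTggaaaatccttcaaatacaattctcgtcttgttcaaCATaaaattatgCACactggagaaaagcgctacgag
Zfp41, chr15:75618465-75618548, plus strand, exon 2 of 3: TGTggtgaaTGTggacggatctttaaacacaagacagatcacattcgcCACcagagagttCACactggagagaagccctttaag
Zfp324, chr7:12970762-12970845, plus strand, exon 4 of 4: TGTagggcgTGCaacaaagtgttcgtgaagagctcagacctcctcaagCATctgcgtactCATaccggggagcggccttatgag
Zfp760, chr17:21722473-21722556, plus strand, exon 6 of 6: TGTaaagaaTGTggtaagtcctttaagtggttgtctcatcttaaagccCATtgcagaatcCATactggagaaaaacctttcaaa

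Fingers were counted as an in-frame codon pattern, because no protein table was given: a pair of cysteine codons 2 codons apart, 12 further codons, then a pair of histidine codons 3 to 5 codons apart. At least 1 such finger was found in 257 of 271 members, with a median of 10 and a range of 0 to 33, and Zfp462 had the most. Among 10468 other genes at 1 FPKM or more with gene models, 250 had a finger. Of 2094 finger units of the full 84 bases, found in 230 members, 95.7% lay in the last exon of the transcript. A KRAB-type codon pattern was present in 127 members (46.9%), against 0.535% of the other genes. This pattern is strict, and a member without it may still encode a KRAB domain.

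The members had few and long exons. Their coding sequence held a median of 1.68 exon junctions per kilobase, against 6.29 in the other genes. The longest exon had a median of 2411 bases in the members and 1324 in the others. The exon with the most coding sequence held a median of 85.5% of it in the members and 24.3% in the others. The longest exon was the last exon in 253 members (93.4%) and in 86.5% of the other genes. In 24 members the whole coding sequence lay in 1 exon.

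The short sequences GGACT and AAACC, which fit the consensus around m6A sites, were counted on the transcript strand, where they cannot overlap each other. The motif AAACC was denser in the members, with a median of 2.18 per kilobase of transcript against 0.929 in the other genes. GGACT was sparser, at 0.798 against 1.05 per kilobase. Within the finger unit, 47.2% of the members' units held AAACC, while 7.79% of 84-base coding windows of other genes did. For GGACT the shares were 4.78% and 8.98%. Of the units printed above, those of Zfp189, Zfp37 and Zfp760 hold AAACC and that of Zfp37 holds GGACT. These are matches of letters, and methylation was not measured in these samples.

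Before treatment the members ranged from 1.09 to 171 FPKM, with a median of 8.41, while all loci at 1 FPKM or more had a median of 13.3. Zfp207, which encodes the spindle assembly factor BuGZ, was the most abundant at 171 FPKM (interval 136 to 205). Zfp106, an RNA-binding protein, followed at 87.8 FPKM (63.2 to 112) and Zfp664 at 84.3 FPKM (68.2 to 100). The intervals of Zfp106 and Zfp664 overlapped. Just inside the threshold stood Zfp641 (1.09 FPKM), Zfp791 (1.13) and Zfp112 (1.30), and just outside it Zfp455 (0.979), Zfp300 (0.931) and Zfp784 (0.922). Zfp455 measured 1.85 FPKM at 8 h, so a threshold on the treated samples would have admitted it.

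After 8 h of dTAG-13 most members stood above their 0 h level, by small amounts. The median log2 ratio was 0.21 (quartiles 0.01 and 0.44), and 205 of 271 members (75.6%) lay above 0. Over all 13439 loci at 1 FPKM or more at 0 h the median was 0.00 and 49.9% lay above 0. Called higher were 12 members (4.43%) and called lower were 3 (1.11%), while 3.49% of the 13825 tested loci were called higher and 0.94% lower. With the authors' estimated counts and 2 SDs of their variance in place of FPKM and its interval, 19 members (7.01%) were higher and 3 (1.11%) lower, beside 4.69% and 1.26% of tested loci. By the fold alone, without the intervals, 39 members (14.4%) were higher and 5 (1.85%) lower, against 8.91% and 4.80% of all tested loci. Tested loci include some that reached 1 FPKM only after treatment, which the members' rule does not allow. Of loci at 1 FPKM or more at 0 h, 3.24% were called higher and 0.97% lower. By the fold alone the shares of these loci were 7.72% and 4.94%. In all, 104 members (38.4%) had ratios between -0.20 and 0.20.

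**Figure D1:**
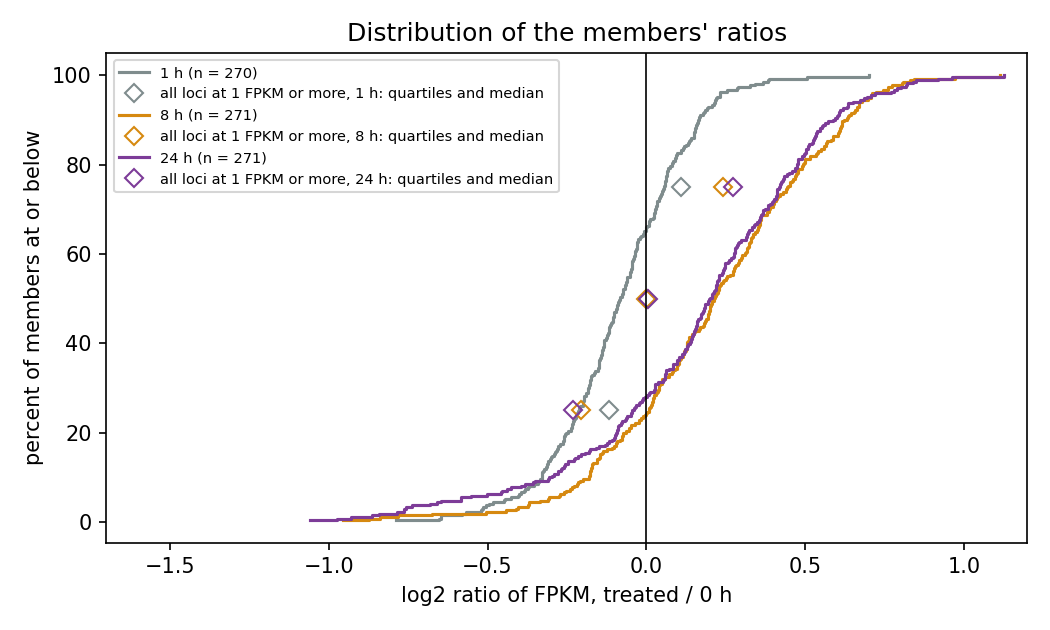
Cumulative distribution of the members' log2 FPKM ratios against 0 h (x axis) as percent of members (y axis), 1 line per time, with open diamonds at the quartiles and median of all loci at 1 FPKM or more at 0 h. The 8 and 24 h lines cross the 50% level near 0.2 and the 1 h line near -0.08, while the medians of all loci stand at 0.

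After 24 h the median log2 ratio was 0.20 (quartiles -0.04 and 0.42), and 195 of 271 members (72.0%) lay above 0. All loci at 1 FPKM or more again had a median of 0.00. Called higher were 11 members (4.06%) and called lower were 5 (1.85%), beside 3.83% and 1.65% of the 13910 tested loci. By estimated counts 22 (8.12%) were higher and 10 (3.69%) lower, beside 5.10% and 2.39%. The fold alone gave 28 members higher (10.3%) and 14 lower (5.17%), beside 10.5% and 6.53% of tested loci. Among loci at 1 FPKM or more at 0 h, 3.48% were called higher and 1.70% lower. By the fold alone the shares of these loci were 8.68% and 6.75%. The 8 and 24 h comparisons use the same 0 h samples, so their values are set side by side and are not independent of each other.

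After 1 h the members leaned the other way. Their median log2 ratio was -0.08 (quartiles -0.21 and 0.06), and 92 of 270 members (34.1%) lay above 0, against 50.6% of all loci at 1 FPKM or more. Zfp972 was not on 1 locus in that table and has no 1 h value. The call rule gave 0 members higher and 1 lower, beside 0.117% and 0.285% of 13690 tested loci. By the fold alone 1 member (0.37%) was higher and 4 (1.48%) were lower, beside 2.59% and 2.57% of tested loci. For loci at 1 FPKM or more at 0 h these fold-alone shares were 1.64% and 2.63%. Ratios between -0.20 and 0.20 were found for 180 members (66.7%). The same 0 h samples differed between the 1 h and the 8 h tables by a median factor of 0.988 over the members, from 0.816 for Zfp956 to 1.39 for Zfp462. Each ratio is taken within 1 table, so these factors do not measure the lean at 1 h.

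Among the members that rose, Zfp189 had the highest ratio at both 8 and 24 h. The gene spans chr4:49521176-49531517 on the plus strand and has 16 fingers by the codon pattern. Its level was 6.49 FPKM (interval 5.05 to 7.93) at 0 h and 14.1 FPKM (11.3 to 17.0) at 8 h, a log2 ratio of 1.11. In the 24 h table it was 6.51 FPKM (5.05 to 7.98) and 14.3 FPKM (11.4 to 17.3), a log2 ratio of 1.13. At 1 h it measured 7.14 FPKM (5.42 to 8.86) against 6.41 (4.85 to 7.96), and the intervals overlapped. It was the only member to reach a 2-fold rise at either time.

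Zfp62, with 25 fingers and its whole coding sequence in 1 exon (gene at chr11:49203292-49218816, plus strand), stood at 27.9 FPKM (21.8 to 34.0) before treatment and rose to 47.7 (34.4 to 61.0) by 8 h. At 24 h it reached 52.9 FPKM (42.2 to 63.6), so the log2 ratios were 0.77 and 0.92. Zfp37 (12 fingers) was at 12.1 FPKM (9.45 to 14.7) and rose to 21.5 (17.0 to 26.1) by 8 h and 21.2 (16.8 to 25.7) by 24 h. Both genes stood clear of their 0 h interval at both times.

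The transcriptional repressor PARIS, a target of the ubiquitin ligase parkin, is encoded by Zfp746. It measured 12.1 FPKM (9.21 to 15.0) untreated and rose to 20.5 (15.8 to 25.3) by 8 h and 21.5 (16.2 to 26.8) by 24 h. Zfp639, also known as ZASC1, rose from 24.3 FPKM (17.9 to 30.8) to 42.7 (32.0 to 53.5) and 42.0 (31.2 to 52.8). Zfp623, with a single coding exon, rose from 13.1 FPKM (10.4 to 15.8) to 23.0 (18.5 to 27.5) and 23.2 (18.6 to 27.9). For each of these the 8 and 24 h levels were alike within their intervals.

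Zfp30, a KRAB protein reported to act in fat cell differentiation, went from 5.87 FPKM (4.59 to 7.15) to 9.65 (7.67 to 11.6) and 10.7 (8.48 to 12.9). Zfp212 went from 12.4 FPKM (9.84 to 14.9) to 19.7 (15.8 to 23.6) and 18.9 (15.1 to 22.7). Both passed the rule at both times.

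Other members rose at 8 h and did not pass the rule at 24 h, which does not show that the times differ. Zfp553 had log2 ratios of 0.76 at 8 h and 0.50 at 24 h, and its locus overlaps another expressed locus. Zfp768, whose human counterpart has been tied to cell proliferation, had ratios of 0.72 and 0.54. Zfp202, whose human counterpart represses genes of lipid metabolism, had 0.67 and 0.39. Zfp449 had 0.65 and 0.61. All 4 lay above 0 at both times.

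A set of 3 members rose at 24 h and missed the rule at 8 h. Zfp637 measured 0.57 after 8 h and 0.79 after 24 h. The ratios of Zfp606 were 0.46 and 0.61, and those of Zfp334 were 0.47 and 0.59. At 1 h these 3 measured -0.04, -0.18 and -0.12, and none passed the rule.

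**Figure D2:**
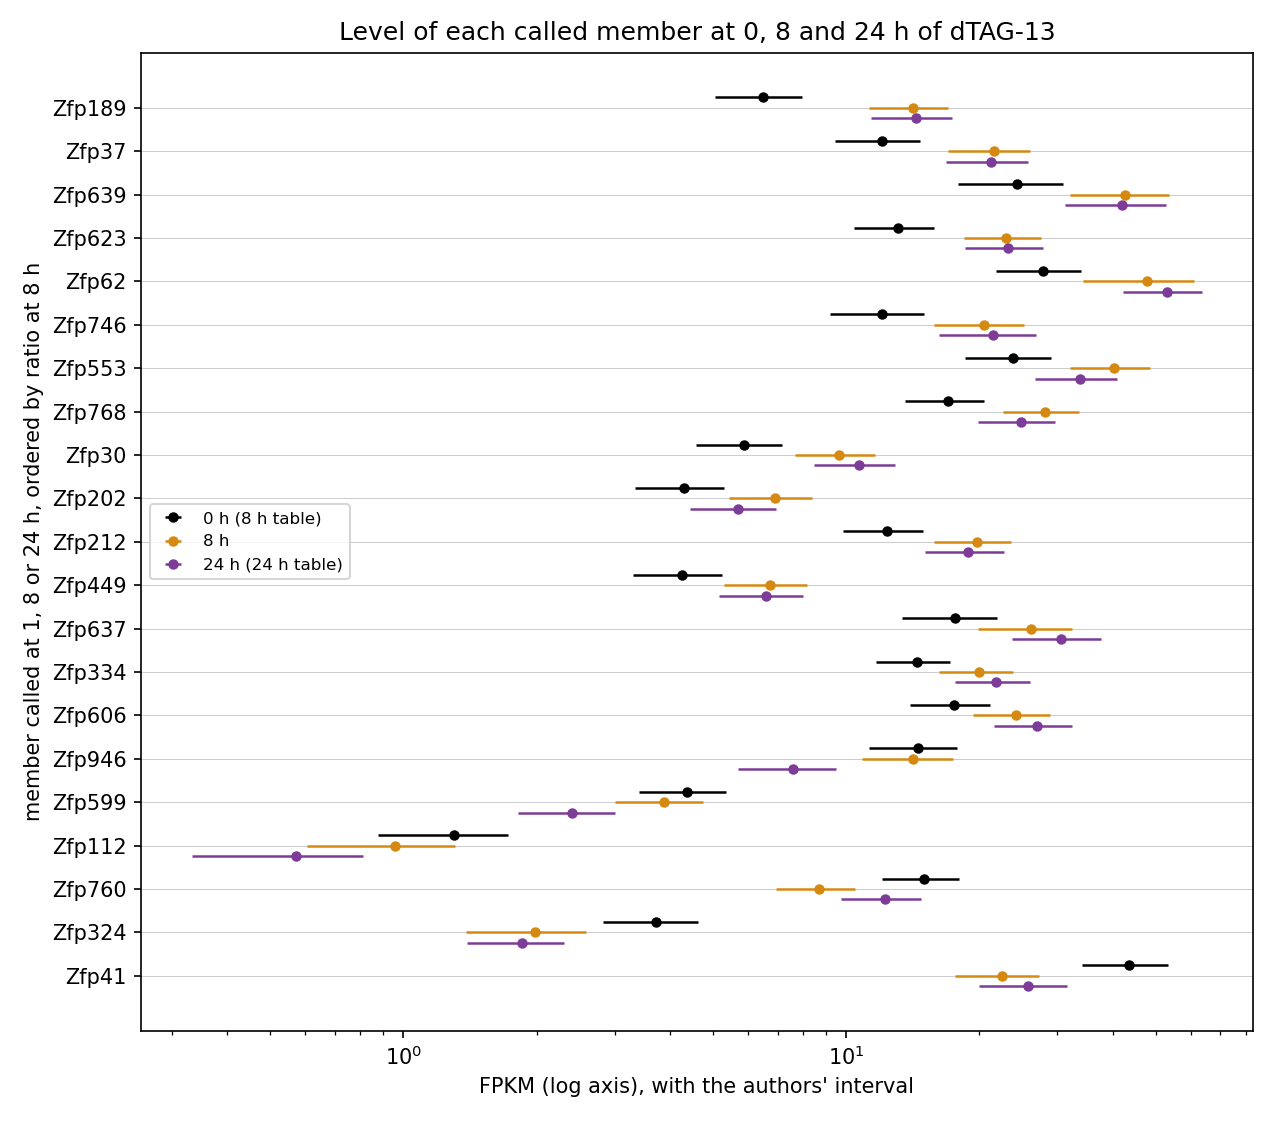
FPKM on a log axis of each member called at 1, 8 or 24 h (21 genes), at 0 h (black), 8 h (orange) and 24 h (purple), with bars for the authors' intervals. Zfp189 is the only gene among them to double, Zfp946 is at its 0 h level at 8 h and below it at 24 h, and Zfp760 is lower at 8 h than at 0 or 24 h.

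Zfp41 fell the most at 8 h. The gene lies on the plus strand at chr15:75616679-75629827, with its coding sequence in 1 exon and 4 fingers. Its level was 43.6 FPKM (34.1 to 53.2) before treatment and 22.5 (17.6 to 27.3) after 8 h, a log2 ratio of -0.95. After 24 h it was 25.7 (19.9 to 31.6), a ratio of -0.76. At 1 h it stood at 34.1 FPKM (26.0 to 42.1) against 43.1 (33.0 to 53.2), with overlapping intervals. It had the highest 0 h level of the members that fell at either time.

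Zfp760, a KRAB protein gene with 16 fingers at chr17:21707741-21725636 on the plus strand, was the one member to pass the rule at 1 h. It measured 14.9 FPKM (11.8 to 18.0) at 0 h and 8.58 (6.64 to 10.5) at 1 h, a log2 ratio of -0.79. At 8 h it was at 8.70 FPKM (6.95 to 10.5) against 15.0 (12.1 to 18.0), a ratio of -0.78. At 24 h it was at 12.2 FPKM (9.76 to 14.7) against 15.1 (12.1 to 18.1), and those intervals overlapped. Its 1 and 8 h levels were alike, and its 24 h level lay between them and the 0 h level.

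Zfp324 (KRAB, 9 fingers) had log2 ratios of -0.52, -0.87 and -0.98 in time order and passed the rule at 8 and 24 h. Its FPKM was 3.73 (2.82 to 4.63) at 0 h, 1.99 (1.39 to 2.59) at 8 h and 1.85 (1.39 to 2.31) at 24 h. By estimated counts its ratios were smaller, -0.73 at 8 h and -0.76 at 24 h.

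The remaining called members fell at 24 h. Zfp946, a KRAB gene on chromosome 17, was at 14.5 FPKM (11.2 to 17.8) at 0 h and 14.2 (10.9 to 17.4) at 8 h. It was at 7.60 FPKM (5.70 to 9.50) at 24 h, a log2 ratio of -0.93. Zfp599 (KRAB, 10 fingers) had ratios of -0.40, -0.17 and -0.84 at 1, 8 and 24 h. Zfp112, close to the threshold of the set at 1.30 FPKM (0.878 to 1.72), measured 0.958 (0.607 to 1.31) at 8 h and 0.573 (0.333 to 0.813) at 24 h. Its 24 h ratio of -1.06 was the lowest of any member at any time.

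Several members with ratios as large did not pass the rule, because their intervals overlapped. Zfp691 was at 8.22 FPKM (4.68 to 11.8) untreated, 16.2 (11.7 to 20.8) after 8 h and 16.1 (11.6 to 20.7) after 24 h, log2 ratios of 0.97 and 0.96. The bounds overlapped by less than 1 FPKM. Zfp668, at 0.84 and 0.51, had an 8 h interval of 0 to 26.0 FPKM. Zfp969 measured -0.84 at 8 h, from 1.73 FPKM (0.412 to 3.04), and all of the 75-base words of its transcript are also found in transcripts of other genes. At 1 h the highest ratios belonged to Zfp987 (0.70), Zfp503 (0.50) and Zfp560 (0.39), and Zfp112 and Zfp558 (both -0.65) were lowest after Zfp760. Zfp503 and Zfp560 at 1 h, and Zfp668 at 24 h, also lay under the 1.5-fold threshold. For Zfp987, 87.4% of its words are shared with other genes, and its 1 h ratio by estimated counts was 0.19. The FPKM and count ratios differed by over 0.3 for 10, 11 and 8 members at 1, 8 and 24 h. Zfp560 and Zfp558 were among those at 1 h. Both ratios had opposite signs in 30, 21 and 17 members at these times. The largest difference was that of Zfp758 at 24 h, where the count ratio was higher by 1.55. By estimated counts the median log2 ratios of the members were -0.08, 0.20 and 0.22.

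Level at 0 h bore little relation to the ratio at 8 and 24 h. Across the members, Spearman's rho between the 0 h level and the log2 ratio was 0.00 at 8 h (n = 271) and -0.02 at 24 h. Over all loci at 1 FPKM or more it was -0.13 and -0.11. At 1 h it was 0.19 in the members (n = 270) and 0.19 over all loci. The 0 h value enters both measures, which pushes such a rho towards negative values. With the mean of both log2 levels in its place the members gave 0.26, 0.12 and 0.10 in time order, and all loci 0.24, -0.04 and -0.01. Genes share libraries and are not replicates, so these are descriptions across genes.

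Splitting the members into 3 groups of equal size at 5.34 and 13.6 FPKM showed the same. At 8 h the median log2 ratio was 0.19 in the low group, 0.28 in the middle group and 0.18 in the high group. At 24 h the medians were 0.18, 0.24 and 0.17. All loci in these level ranges had medians of 0.03, 0.08 and -0.04 at 8 h, so the members' shift was present at every level. At 1 h the low group had the lowest median, -0.17, against -0.06 and -0.05 in the others, and -0.04, -0.03 and 0.03 for all loci in these ranges.

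Few members of any level group were called. At 8 h the low, middle and high groups held 2, 6 and 4 members that rose, while 3.29%, 4.63% and 2.59% of all tested loci in these level ranges rose. The same groups held 1, 0 and 2 members that fell, beside 1.63%, 0.604% and 0.742% of loci. At 24 h they held 0, 6 and 5 that rose, beside 3.89%, 4.60% and 2.74% of loci, and 3, 0 and 2 that fell, beside 2.46%, 1.38% and 1.41%. The authors' intervals were wider at low level, with a median half-width of 28.6% of the 0 h value in the low group and 23.3% in the high group. Across the members, rho between the level and this relative half-width was -0.34.

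**Figure D3:**
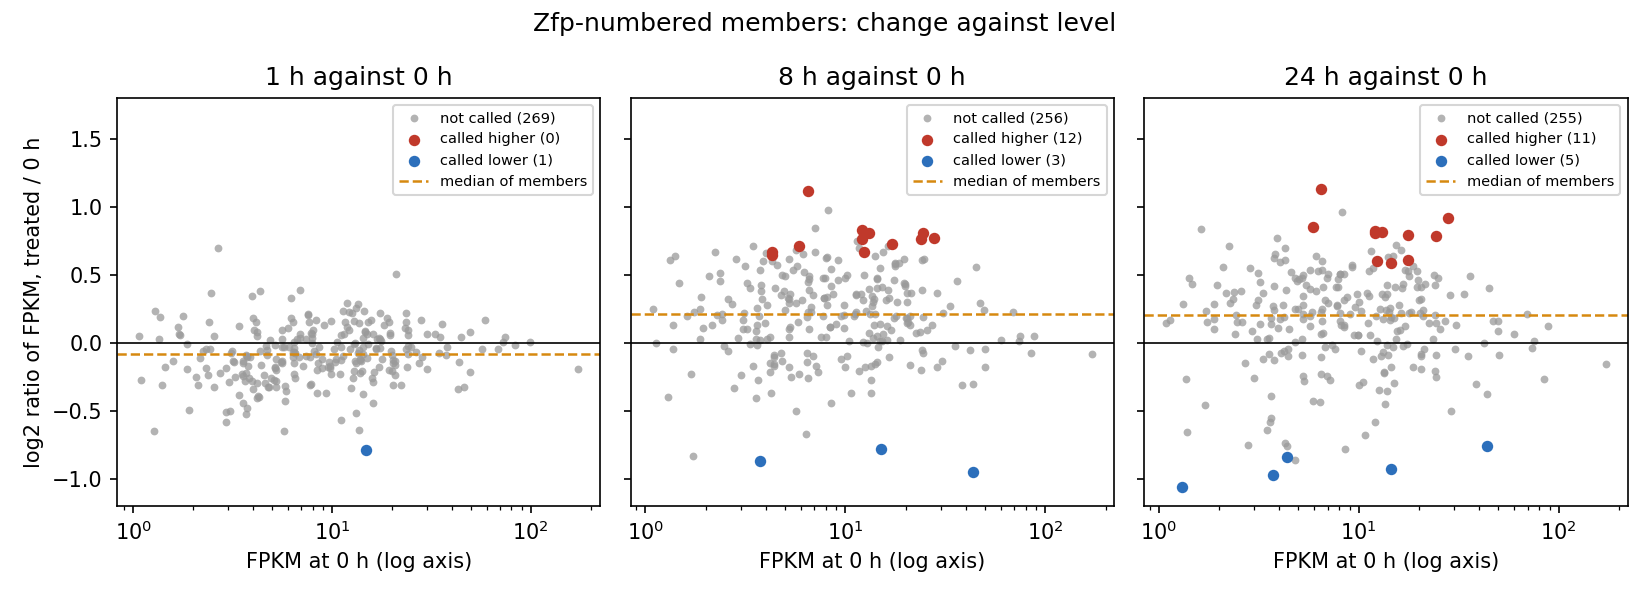
Log2 FPKM ratio (y axis) against the 0 h level in FPKM (log x axis) for each member at 1, 8 and 24 h, with called members in red (higher) or blue (lower) and a dashed line at the members' median. The dots at 8 and 24 h lie mostly above 0 across the whole range of levels, and the members called higher lie between 4 and 28 FPKM.

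Members with many coding junctions per kilobase had lower ratios at 8 and 24 h. Among the members, coding junctions per kilobase and the log2 ratio gave a rho of 0.12, -0.21 and -0.17 after 1, 8 and 24 h. In the 10468 other genes it was 0.09, -0.46 and -0.39. Other measures of exon structure gave the members values closer to 0 at 8 and 24 h. These were -0.10 and -0.07 for the number of coding exons and 0.07 and 0.10 for the length of the longest exon. For the percent of coding sequence in the exon with the most of it, they were 0.12 and 0.09. Coding length, by which the junctions were divided, gave the members 0.20 and 0.17, and the other genes 0.09 and 0.04. At 8 h the 24 members without a coding junction had a median of 0.29, the 21 members with up to 1 per kilobase 0.36, the 131 with over 1 to 2 per kilobase 0.23, and the 51 with over 2 to 3 per kilobase 0.20. The 44 members with over 3 junctions per kilobase had a median of 0.03. At 24 h the 5 medians were 0.24, 0.38, 0.21, 0.23 and 0.03.

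Set beside other genes of the same junction density, the members had smaller 8 h medians in all but the densest class. Other genes had 8 h medians of 0.37, 0.45, 0.37 and 0.35 in the first 4 classes and -0.04 in the densest. In the largest class of members, over 1 to 2 junctions per kilobase, 4 of 131 members rose at 8 h (3.05%), while 64 of 467 other genes did (13.7%). At 24 h 5 of these 131 members rose (3.82%), against 68 of 467 other genes (14.6%). In the densest class 1 of 44 members rose at 8 h (2.27%), against 1.32% of 8680 other genes. At 1 h the members' medians were -0.15, -0.10, -0.09, -0.10 and -0.01 over the 5 classes, while those of other genes lay between -0.02 and 0.00.

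**Figure D4:**
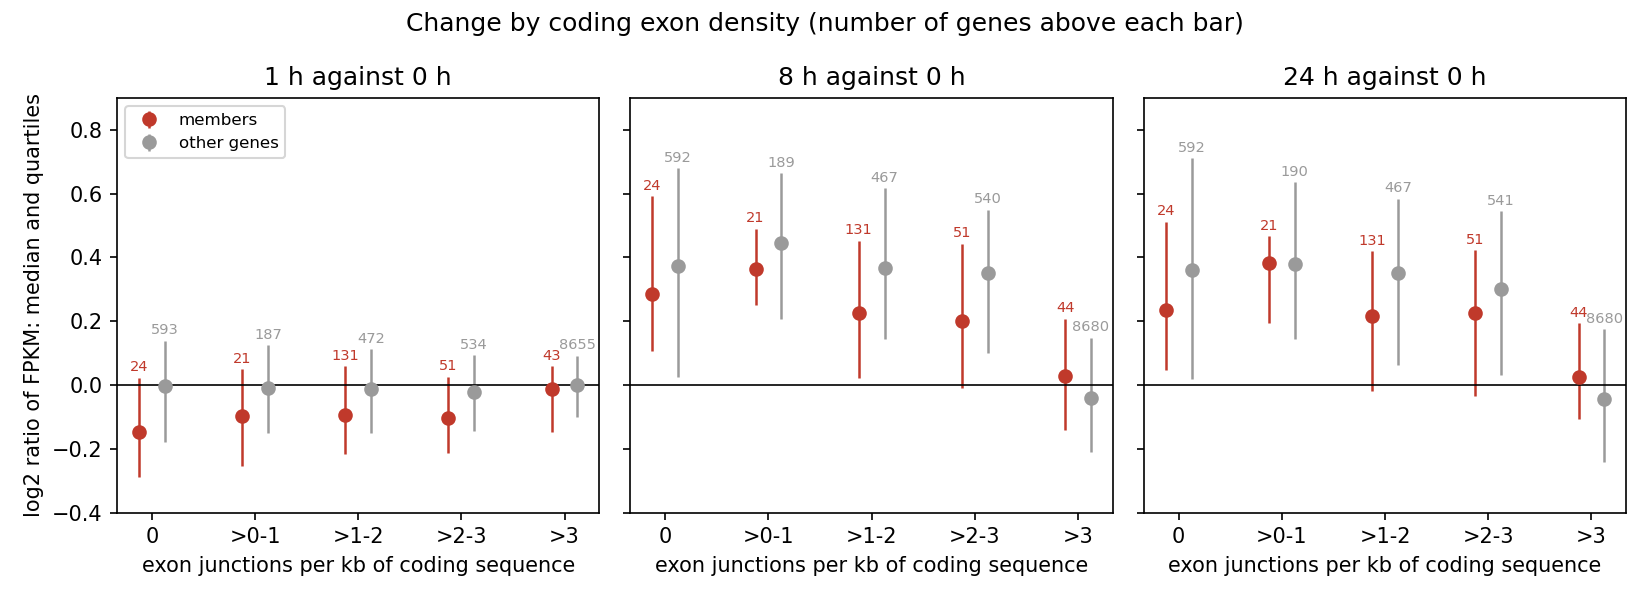
Median log2 FPKM ratio (dots) and quartiles (bars) by coding junctions per kilobase, for members (red) and other genes at 1 FPKM or more (grey), with the number of genes above each bar. At 8 and 24 h both sets fall off in the densest class, and the members' dots lie below the grey ones in the 4 sparser classes, except at 24 h with up to 1 junction per kilobase, where both stand at 0.38.

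Grouped by finger number, the members' 8 h median was 0.06 with no finger match (14 members), 0.01 with 1 to 4 fingers (37), 0.23 with 5 to 9 (67), 0.28 with 10 to 14 (97) and 0.21 with 15 or more (56). At 24 h the medians of these 5 groups were 0.25, -0.01, 0.19, 0.24 and 0.21, with the lowest again at 1 to 4 fingers. At 1 h the medians were lower with more fingers, from -0.01 without a match to -0.14 with 15 or more. Across the members, rho between motif density and ratio was 0.17 at 8 h and 0.20 at 24 h for GGACT, and -0.05 and -0.08 for AAACC. In the other genes it was 0.07 and 0.06 for GGACT, and 0.01 and -0.002 for AAACC. Other properties gave the members values of like size, such as 0.20 and 0.17 for coding length. The percent of G and C bases in the transcript gave 0.13 and 0.12.

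The members with the KRAB-type pattern had a median of 0.18 at 8 h, with 1 of 127 called higher (Zfp30, 0.787%) and 2 lower (Zfp324 and Zfp760, 1.57%). Those without it had a median of 0.27, with 11 of 144 higher (7.64%) and 1 lower (Zfp41, 0.694%), where 3.49% and 0.94% of all tested loci were called. At 24 h the KRAB members had a median of 0.18, with 2 higher (1.57%) and 3 lower (2.36%). The others had a median of 0.23, with 9 higher (6.25%) and 2 lower (1.39%), where all tested loci gave 3.83% and 1.65%. At matched exon structure the direction was not the same in every class. With over 1 to 2 junctions per kilobase the 8 h median was 0.13 in 79 KRAB members and 0.37 in 52 others. With over 2 to 3 it was 0.21 in 35 and 0.19 in 16, and with over 3 it was 0.28 in 8 and -0.04 in 36. These splits have no test, and the KRAB members were measured with wider intervals (median half-width 28.3%, against 24.6%).

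Part of the set shares sequence with other genes, so reads may be split between copies. Of the 271 members, 194 shared no 75-base word with transcripts of other genes, and 8 shared over 50% of theirs. The 38 members sharing over 5% had an 8 h median of 0.07, with none called, and the other 233 had 0.22. Their intervals were also wider, with a median half-width of 33.4% against 25.7%. The loci of 41 members overlapped another expressed locus. Strandedness of the counting is not given in the sources used here, so reads of overlapping genes cannot be told apart.

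By position, 130 members lay within 100000 bases of another member. Chromosome 7 held the most, 66, with an 8 h median of 0.33 and 57 of them above 0, and 3 of them rose (Zfp553, Zfp768 and Zfp30) and 1 fell (Zfp324). These shares, 4.55% and 1.52%, stood beside 3.49% and 0.94% of all tested loci. Chromosome 17 held 37, including Zfp760 and Zfp946, with a median of 0.12. The 15 members on chromosome 6 had a median of 0.50, with 2 that rose (Zfp212 and Zfp746), and the 9 on chromosome 15 had -0.08, with Zfp623 higher and Zfp41 lower.

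Members with known roles in imprinting and repeat silencing had small ratios. Zfp57, which keeps the methylation of imprinted regions, was at 42.0 FPKM (29.7 to 54.4) at 0 h, 40.4 (27.6 to 53.3) at 8 h and 42.0 (29.3 to 54.8) at 24 h. Zfp445, which acts with it, had log2 ratios of -0.05, 0.24 and 0.09 after 1, 8 and 24 h. Zfp809, which silences proviruses in stem cells, had -0.08, 0.11 and 0.13, and Zfp568, a repressor of a placental Igf2 promoter, had 0.11, 0.08 and 0.02. None of these 4 passed the rule, while 3.49% of all tested loci were called higher and 0.94% lower at 8 h.

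The 9 members with neural and developmental roles had a median of 0.36 at 8 h and 0.37 at 24 h, with 8 of 9 above 0 at both times and none called. Zfp462, needed for brain development, measured 24.8 FPKM (11.2 to 38.4) at 0 h and 38.0 (9.13 to 66.9) at 8 h, so its ratio of 0.61 came with very wide intervals. Zfp423, a partner of EBF factors, also had 0.61 at 8 h and 0.21 at 24 h, and its relative Zfp521 had 0.21 and 0.22. Zfp503, of the Nlz family of repressors active in the developing eye, was at 29.9 FPKM (23.5 to 36.3) at 1 h against 21.0 (16.4 to 25.6), a ratio of 0.50 with overlapping intervals. Its ratios at 8 and 24 h were 0.36 and 0.43, and those of its relative Zfp703 were 0.31 and 0.38. Zfp536, which holds back neuronal differentiation, had 0.40 and 0.37, and Zfp516, a regulator of brown fat genes, had 0.39 and 0.42. Zfp335, a microcephaly gene, had -0.15 and -0.05, and Zfp219 had 0.05 and 0.01.

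The 13 members tied to pluripotency and chromatin had a median of 0.31 at 8 h and 0.19 at 24 h, 10 of them above 0 at both times and none called. Zfp711, a partner of the histone demethylase PHF8, had log2 ratios of 0.34, 0.66 and 0.59 in time order. Zfp64 had 0.02, 0.58 and 0.52, with 0 h and 8 h levels of 17.6 FPKM (13.9 to 21.4) and 26.5 (21.0 to 31.9). Its bounds overlapped by less than 1 FPKM. Zfp281, a pluripotency regulator with no coding junction, had 0.07, 0.43 and 0.31. Its relative Zfp148, with 2.10 junctions per kilobase, had -0.24, -0.17 and -0.05. By estimated counts Zfp148 had 0.03, 0.21 and 0.14, and Zfp281 had 0.03, 0.41 and 0.31. The sign for Zfp148 thus depended on the measure, and its interval at 0 h was wide (half-width 42.3% in the 8 h table). Zfp217, a corepressor protein reported to bind METTL3, had -0.10, 0.31 and 0.19. The 3 related subunits of a chromatin complex, Zfp592, Zfp532 and Zfp687, had 8 h ratios of 0.36, 0.33 and 0.22. Zfp131 had 0.36 and Zfp296 0.22 at 8 h. The transcription factors Zfp143, Zfp384 and Zfp410 had 0.01, -0.05 and -0.14.

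The 8 members that act on RNA, ribosomes or ubiquitin had medians of 0.04, -0.04 and -0.05 at 1, 8 and 24 h. Zfp207 measured 161 FPKM (128 to 195) at 8 h and 154 (122 to 186) at 24 h. Zfp598, the ubiquitin ligase that recognises collided ribosomes, had log2 ratios of 0.18 at 8 h and -0.01 at 24 h. Zfp622 and Zfp593, which act in assembly of the large ribosomal subunit, had -0.08 and -0.18 at 8 h and -0.25 and -0.31 at 24 h. The RNA-binding proteins Zfp326, Zfp638 and Zfp106 had -0.02, -0.05 and 0.05 at 8 h, and Zfp706 had 0.02. These genes have more coding junctions than most members, from 3.50 per kilobase in Zfp622 to 7.41 in Zfp207.

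The partners through which KRAB proteins act had lower median ratios than the members at 8 and 24 h. Of 26 genes on a list of such corepressors, 25 could be measured. They had median log2 ratios of -0.07, -0.09 and -0.12 in time order, and none was called at any of these times. Trim28, the corepressor itself, was at 330 FPKM at 0 h and had ratios of 0.03, -0.35 and -0.50. Setdb1, the histone methyltransferase it recruits, had -0.15, 0.47 and 0.37. The maintenance DNA methyltransferase Dnmt1 had -0.08, -0.42 and -0.43.

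Other zinc finger families at 1 FPKM or more were set beside the members. Of all loci at 1 FPKM or more at 0 h, 3.24% were called higher at 8 h and 0.97% lower. At 8 h, 34 Zbtb genes, which join fingers to a BTB domain, had a median log2 ratio of 0.34, with 4 called higher (11.8%). The 20 Zscan and Zkscan genes, which join them to a SCAN domain, had 0.45, with 3 called higher (15%). The 18 Klf and Sp genes had 0.12 with 1 higher (5.56%), and the 11 Zc3h genes, whose fingers bind RNA, 0.06 with 1 higher (9.09%). The 17 Zdhhc palmitoyltransferases, whose cysteine-rich domain is of another kind, had 0.10 and none called. Among 157 genes of other names with at least 3 C2H2 fingers, which include some of these, the median was 0.23, 7 rose (4.46%) and 0 fell, beside 4.43% and 1.11% of the members. At 24 h those genes had a median of 0.14 and the members 0.20.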

How the data were processed

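RNA from 8 samples (4 groups of 2 replicates) was sequenced as polyadenylated RNA, per the labels' protocols. The submitters' processing notes name Cufflinks 2.2.1, Cuffdiff and mm10. The authors deposited tables for 3 comparisons, of 1, 8 and 24 h against 0 h. Per the file headers, they give FPKM with its bounds and a status flag, and, in a separate table, estimated counts with variances. The authors scaled the estimated counts, which are not whole numbers. Replicates are pooled into 1 column per condition, so no edgeR-type test, spread or p-value was possible. The level of the interval is not given in the sources used here. The labels' protocol also mentions a 2 h treatment, which was not analysed here, and repeated rounds of library preparation, which the tables do not separate.

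Ratios were log2((FPKM at t + 0.1) / (FPKM at 0 h + 0.1)) within a table, a scale that shrinks the changes of low genes. Loci were tested at 1 FPKM or more in 1 condition with OK status and called at 1.5-fold with intervals apart. Gene models, exon counts, finger and KRAB-type codon patterns and motifs were taken from GENCODE M21 (GRCm38), which all 271 members matched by name and position. The plan had named RefSeq proteins, for which codon patterns were used instead. Shared words were 75-base words on the same strand. The members and lists were chosen with earlier results of these data known. Named are all called members, the 3 highest and lowest at each time, the 3 most abundant, those beside the threshold, and role groups. Alternatives covered the pseudocount, the fold, the interval, estimated counts and level minimums. Python 3.11.15, pandas 2.3.3 and scipy 1.17.1 were used.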

Additional observations from a re-analysis of the deposited data

How the results depend on the processing

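Of 123 values recomputed under alternative settings, 104 stayed within the tolerance (0.05 for a median log2 ratio, 0.1 for rho, 1.5 times for a count), 19 moved and 0 were labelled reversed. Those that moved include 2 changes of sign in rho between level and ratio. It went from 0.00 to -0.12 at 8 h with a minimum of 5 FPKM. At 24 h it went from -0.02 to 0.10 with the mean of both levels. The members' median kept its sign in 27 of 27 recomputations. Without the interval criterion the members called higher were 1, 39 and 28 at 1, 8 and 24 h, and those called lower 4, 5 and 14. A 2-fold threshold left 1 higher at 8 h and 1 at 24 h, and 0, 0 and 1 lower at 1, 8 and 24 h. Estimated counts in place of FPKM gave 19 higher at 8 h, and 22 higher and 10 lower at 24 h (7.01%, 8.12% and 3.69% of the members, beside 4.69%, 5.10% and 2.39% of tested loci). With a minimum of 5 FPKM at 0 h, 2 members were called lower at 24 h, and rho between level and ratio was -0.12 at 8 h and -0.13 at 24 h. With the mean of both levels on the x axis, rho was 0.12 and 0.10. The alternative that kept members with at most 5% shared words was chosen after seeing the data, and it moved none of the 12 values past its tolerance. No paired analysis was possible because the deposited columns pool the replicates, and no replicate could be left out.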
